A study of Mus musculus with 4 samples.

Results

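Rec8, Dazl, Ddx4, Mael, Piwil2, Prdm1 and Prdm14 are genes of germ cell specification, germ granules and meiosis, and they are described here as a list of 7 chosen by name. The choice was made with earlier results of these data known, so counts of the 7 beside all genes are a description only. All 7 were found, each at a single row, in the deposited table, which held 9997 gene symbols. The study grew embryoid bodies, floating clusters in which stem cells begin to differentiate, from ES-E14TG2a mouse embryonic stem cells, and asked how all-trans retinoic acid (ATRA) changes their RNA on the way to neurons. The 4 groups hold 1 library each: embryoid bodies labelled as control, then embryoid bodies with ATRA at stages labelled 0, 6 and 10 days. ATRA was added at 5 µM on days 4 and 6 of suspension culture, the series text counts the stages from the end of 4 days of ATRA, and embryoid bodies were plated on poly-DL-ornithine and laminin after 8 days. Stem cell medium held leukemia inhibitory factor, and it is not listed for the embryoid body medium. The culture age of the control is not given, so ATRA and culture age cannot be told apart in any comparison with the control, and day and plating cannot be told apart later on. All 4 libraries come from a single cell line, and with 1 library a group no difference below has a replicate check or a test.

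In the mouse embryo, germ cells are set aside from the epiblast by a few transcription factors, among them Prdm1 (Blimp1) and Prdm14. Later germ cells express RNA-binding proteins such as Dazl and Ddx4 (Vasa), and the piRNA pathway, in which Piwi proteins and small RNAs silence transposons, works in perinuclear germ granules. Meiosis follows, with cohesin complexes that carry Rec8 in place of the mitotic subunit Rad21. Retinoic acid is a signal tied to the start of meiosis in the gonad, and Rec8 is a known retinoic acid responsive gene there. In embryonic stem cells and somatic tissues, many germ line promoters are rich in CpG and are kept silent by DNA methylation and by repressor complexes that include E2f6 and Max. These genes are therefore also read outside germ cells when that silencing changes, and a level in bulk RNA does not show that germ cells are present.

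Promoter sequences are shown first for Rec8, Dazl and Mael, and shorter stretches for Ddx4, because these 4 genes were the ones called higher at 0 days. They are RefSeq sequences on build GRCm38.p6 (mm10), found for 5 of the 7 genes: Rec8, Dazl, Ddx4, Mael and Prdm1. For Rec8, Dazl and Mael the stretch printed ends before the first annotated gene start, reads 5′ to 3′ along the gene's strand, and has every CpG in capitals. Rec8 is at chr14:55617916-55618001, plus strand, Dazl at chr17:50293637-50293870, minus strand, and Mael at chr1:166238748-166238994, minus strand.
Rec8: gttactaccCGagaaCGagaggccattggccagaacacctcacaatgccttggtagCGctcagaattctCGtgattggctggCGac
Dazl: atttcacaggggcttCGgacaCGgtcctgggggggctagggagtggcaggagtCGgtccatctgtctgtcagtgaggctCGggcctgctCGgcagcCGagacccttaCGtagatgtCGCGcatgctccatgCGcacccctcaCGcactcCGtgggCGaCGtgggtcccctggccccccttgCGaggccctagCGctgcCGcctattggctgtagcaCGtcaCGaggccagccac
Mael: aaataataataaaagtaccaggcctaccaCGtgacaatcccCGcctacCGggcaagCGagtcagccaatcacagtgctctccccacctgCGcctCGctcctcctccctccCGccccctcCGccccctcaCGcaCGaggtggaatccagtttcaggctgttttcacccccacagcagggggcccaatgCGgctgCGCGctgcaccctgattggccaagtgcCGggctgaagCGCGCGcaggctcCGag

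Over the 250 bases before the start that each RefSeq window uses, Ddx4 held 31 CpGs, Dazl 20, Mael 18, Prdm1 15 and Rec8 10. The median of all 32851 promoter windows was 6, and 94.8% of them held fewer CpGs than Ddx4, against 62.2% for Rec8. Rec8, the gene with the largest difference at 0 days, thus had the fewest CpGs of the 5 in these windows. Most of the Rec8 window, however, lies after the first annotated gene start. Only the 86 bases printed above, with 5 CpGs, lie before it. The Prdm1 window lies inside the GENCODE gene, and that of Ddx4 runs past the GENCODE start. The methylation of these promoters was not analysed here.

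Motifs were searched on both strands of the same 250 bases. GCGGGAA, the core of E2F family sites, occurred in 3.82% of all windows and in that of Ddx4. CACGTG, the E-box of Max and its partners, occurred in 6.02% of all windows and in those of Ddx4 and Mael. The Ddx4 matches lie at chr13:112652428-112652457 and chr13:112652322-112652351, minus strand, downstream of the GENCODE start and before the RefSeq start. The Mael match lies at chr1:166238950-166238979, minus strand. Each is shown within 30 bases, with the motif in capitals.
Ddx4 with GCGGGAA: ccgtccatgggGCGGGAAgtcgcgcgccgc
Ddx4 with CACGTG: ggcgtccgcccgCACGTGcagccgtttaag
Mael with CACGTG: taccaggcctacCACGTGacaatccccgcc

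The retinoic acid receptor half-sites AGGTCA and AGTTCA occurred in 14% and 11.8% of all windows and in none of the 5 windows of these genes. Direct repeats of these half-sites with a spacer of 1, 2 or 5 bases were in 22, 12 and 11 of the 32851 windows, none of them a window of these genes. These counts say only that the letters are or are not in the window, most of which lies inside the annotated gene for Rec8.

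Levels are given as deposited by the authors in FPKM, that is, fragments counted per kilobase of a transcript and scaled to the size of the library. Differences are of log2(FPKM + 1), first named minus second, and a gene is called higher or lower at 2-fold or more on that scale, which understates the change of low genes. The comparison covered the 5885 genes that reached 1 FPKM in any of the 4 libraries, and all 7 genes were among them. A gene below 1 FPKM in the control passed only through an ATRA library. Counts of list genes higher than the control are therefore partly set by this filter. The estimated depth (1 fragment being the smallest step in the values) was 24500000 fragments in the control and 26400000, 25200000 and 27300000 at 0, 6 and 10 days. A level resting on 3 fragments of a 1 kb transcript lies between 0.110 and 0.122 FPKM. Intervals given with FPKM ratios are 95% and cover counting error only, on fragments estimated from the longest coding transcript. Lower RNA per cell and fewer cells with the RNA cannot be told apart in these bulk libraries.

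Against the control, 4 of the 7 genes were higher at 0 days and 1 was lower. Rec8, Dazl, Ddx4 and Mael were the higher ones and Prdm14 the lower one, with Piwil2 and Prdm1 under 2-fold. Over all 5885 genes, 12.2% were higher and 12.8% lower in this comparison. The median difference of the 7 genes was 1.40, beside -0.04 for all genes. At 6 days against 0 days none of the 7 was higher and 5 were lower, where 8.22% of all genes were higher and 4.88% lower. The 5 lower genes were the same 4 that had been higher at 0 days, and Piwil2. These comparisons share the 0-day library, so a high value there counts in both.

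**Figure D1:**
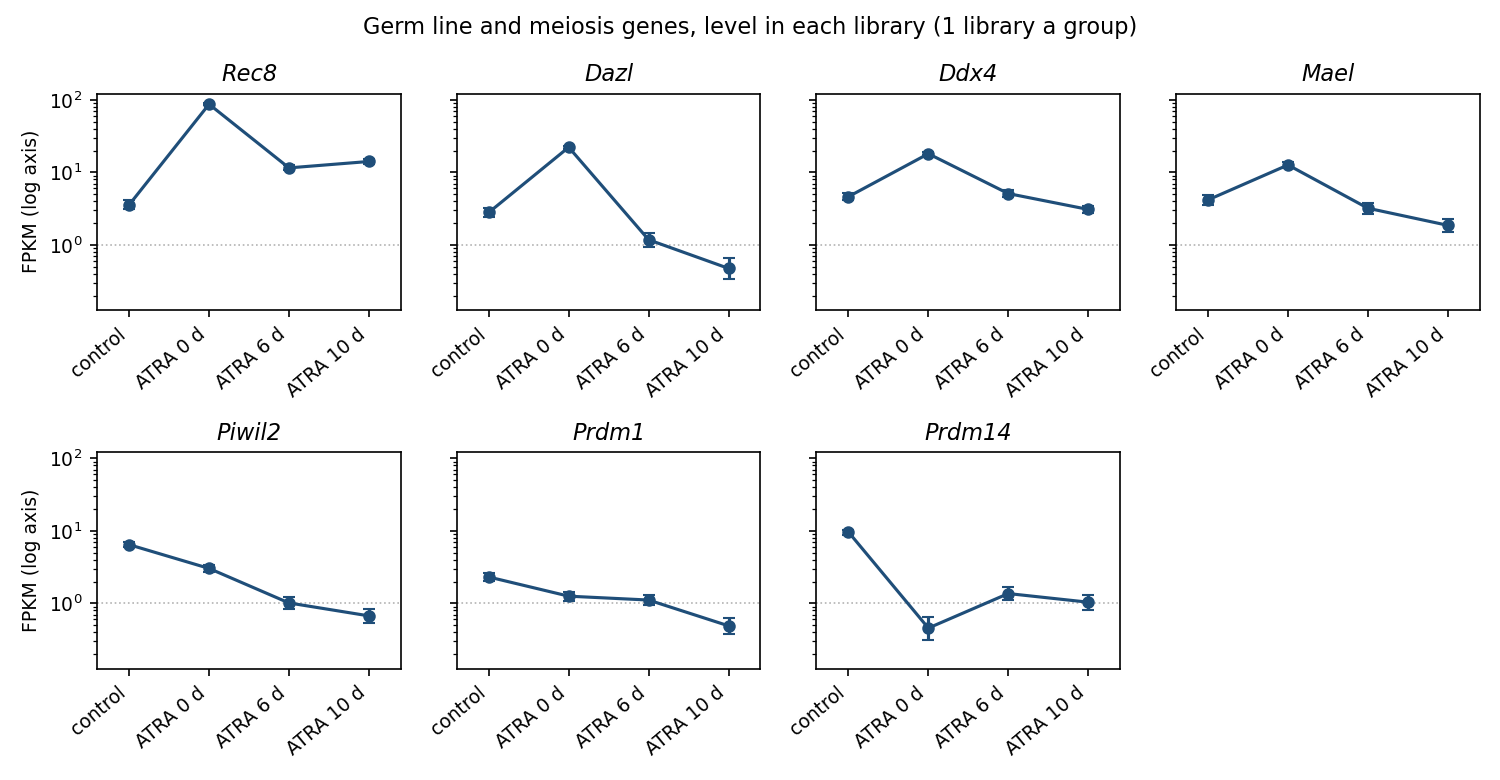
FPKM (log axis) of each of the 7 genes in the control and in ATRA-treated embryoid bodies at 0, 6 and 10 days, 1 library each; bars are 95% counting intervals and the dotted line is 1 FPKM. Rec8, Dazl, Ddx4 and Mael are highest at 0 days, while Piwil2, Prdm1 and Prdm14 are highest in the control.

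Rec8 encodes the meiotic kleisin, the cohesin subunit that closes the ring around sister chromatids. It lies on chromosome 14 (55618037 to 55625395, plus strand, mm10), and stood at 3.57 FPKM in the control, 87.1 FPKM at 0 days, 11.5 FPKM at 6 days and 14.1 FPKM at 10 days. The control was lowest and 0 days highest, and both later libraries stayed above the control. At 87.1 FPKM Rec8 was at percentile 93.7 of the tested genes in the 0-day library, while its 3.57 FPKM was at percentile 31.5 in the control. The log2 difference at 0 days against the control was 4.27, which ranked 26 from the top of 5885 genes, and the FPKM ratio was 24.4 (counting interval 21.1 to 28.3).

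Between 6 and 0 days the log2 difference of Rec8 was -2.81, rank 16 from the bottom. At 10 against 6 days it was 0.27, with an FPKM ratio of 1.23 (counting interval 1.10 to 1.36). Rec8 remained the exception of the 7 at 10 days: against the control its log2 difference was 1.73 and its FPKM ratio 3.96 (counting interval 3.38 to 4.65), while no other gene of the list was higher. In that comparison 19.6% of all genes were higher. Ipo4, an importin gene on the opposite strand whose end lies 4 bases from that of Rec8, was at 19.4 FPKM at 0 days and 33.1 FPKM in the control. Irf9, an interferon response factor 8006 bases before Rec8, was at 19.7 FPKM at 0 days and 18.7 FPKM in the control. Neither neighbour was higher by 2-fold. The use of strand in counting is not stated in the sources used here.

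Dazl encodes an RNA-binding protein that promotes translation in germ cells. It lies on chromosome 17 (50279395 to 50293636, minus strand), and stood at 2.80 FPKM in the control, 22.2 FPKM at 0 days, 1.18 FPKM at 6 days and 0.474 FPKM at 10 days. Unlike Rec8, it was lower at 6 and 10 days than in the control. The log2 difference at 0 days against the control was 2.61, with an FPKM ratio of 7.93 (counting interval 6.86 to 9.22). At 6 against 0 days it was -3.42, which ranked 13 from the bottom of 5885 genes and was the largest in size among the 7. The 10-day level rests on about 39 fragments, and its ratio to 6 days was 0.403 (counting interval 0.269 to 0.595), although on the log2(FPKM + 1) scale the difference of -0.56 was under 2-fold. Between its highest and lowest library Dazl differed 46.9-fold in FPKM, the widest span of the 7.

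Ddx4 encodes the DEAD-box RNA helicase Vasa, a core protein of germ granules. It lies on chromosome 13 (112598333 to 112652475, minus strand), and stood at 4.63 FPKM in the control, 18.1 FPKM at 0 days, 5.10 FPKM at 6 days and 3.08 FPKM at 10 days. The 6-day and control levels lay within counting error of each other, at a ratio of 1.10 (counting interval 0.951 to 1.28). The log2 difference was 1.76 at 0 days against the control and -1.64 at 6 against 0 days. Slc38a9, a lysosomal amino acid transporter gene 8275 bases beyond the start of Ddx4, was at 3.39 FPKM at 0 days and 2.01 FPKM in the control.

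Mael encodes Maelstrom, a piRNA pathway protein that localises to germ granules. It lies on chromosome 1 (166201201 to 166238747, minus strand), and stood at 4.18 FPKM in the control, 12.7 FPKM at 0 days, 3.20 FPKM at 6 days and 1.86 FPKM at 10 days. Its log2 difference was 1.40 at 0 days against the control and -1.70 at 6 against 0 days. The order of its libraries was the same as that of Dazl, but its FPKM span of 6.81-fold was narrower. Ddx4 and Mael followed each other most closely among the 7: their centred log2(FPKM + 1) profiles differed by a root mean square of 0.17 over the 4 libraries, against 1.12 for Mael and Rec8.

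Piwil2 encodes a Piwi protein that binds piRNAs in male germ cells. It lies on chromosome 14 (70372477 to 70429383, minus strand), and stood at 6.45 FPKM in the control, 3.03 FPKM at 0 days, 1.01 FPKM at 6 days and 0.673 FPKM at 10 days. Although its product works with Mael and Ddx4, its level at 0 days was below the control, not above it. The log2 difference at 0 days against the control was -0.88, just short of the 2-fold call, and the FPKM ratio was 0.470 (counting interval 0.416 to 0.532). The difference of 6 against 0 days, -1.002, was just past the call. At 10 days against the control it was -2.15.

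Prdm1 and Prdm14 encode PR-domain zinc finger proteins that specify primordial germ cells. Prdm14 also represses differentiation genes in embryonic stem cells, and Prdm1 is also used in endoderm, placenta and plasma cells. Prdm14 (chromosome 1, 13113457 to 13127163, minus strand) stood at 9.64 FPKM in the control, 0.456 FPKM at 0 days, 1.37 FPKM at 6 days and 1.04 FPKM at 10 days. The control was highest and 0 days lowest, whereas Rec8 was lowest in the control and highest at 0 days. Its log2 difference at 0 days against the control was -2.87, and the FPKM ratio was 0.0473 (counting interval 0.0318 to 0.0679), the 0-day level resting on about 31 fragments. At 6 against 0 days the FPKM ratio was 2.99 (counting interval 1.97 to 4.67), which the log2(FPKM + 1) scale gave as 0.70.

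Prdm1 (chromosome 10, 44437177 to 44528501, minus strand) stood at 2.31 FPKM in the control, 1.26 FPKM at 0 days, 1.11 FPKM at 6 days and 0.490 FPKM at 10 days. It had the narrowest span of the 7, at 4.71-fold in FPKM. The 6-day and 0-day levels lay within counting error, at a ratio of 0.884 (counting interval 0.706 to 1.11). The 10-day level was below the control by a log2 difference of -1.15. The endoderm list, for another site of its expression, went the other way: 9 of 11 other endoderm genes were higher at 10 days than in the control. All 4 tested trophoblast genes were higher too, but they were below 1 FPKM in the control and at 0 days. They passed the filter only through the later libraries, so that count was largely set by the filter. Summed over the 11 endoderm genes, the level was 60.4 FPKM in the control, 127 FPKM at 0 days, 757 FPKM at 6 days and 1045 FPKM at 10 days. Summed over 5 trophoblast genes it was 0.327 FPKM in the control, 0.123 FPKM at 0 days, 48.3 FPKM at 6 days and 77.8 FPKM at 10 days, with Tpbpa, Prl2b1, Prl3d1 and Prl2c2 listed at 0 at 0 days. The prolactin family genes among them have close copies with which they may share reads. Of 4 tested plasma and B cell genes 2 were higher and 1, Cd79b, was lower, and Xbp1, a secretory pathway factor, was at 74.5 FPKM at 10 days and 21.4 FPKM in the control. The part of these cell types in the level of Prdm1 was not tested.

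**Figure D2:**
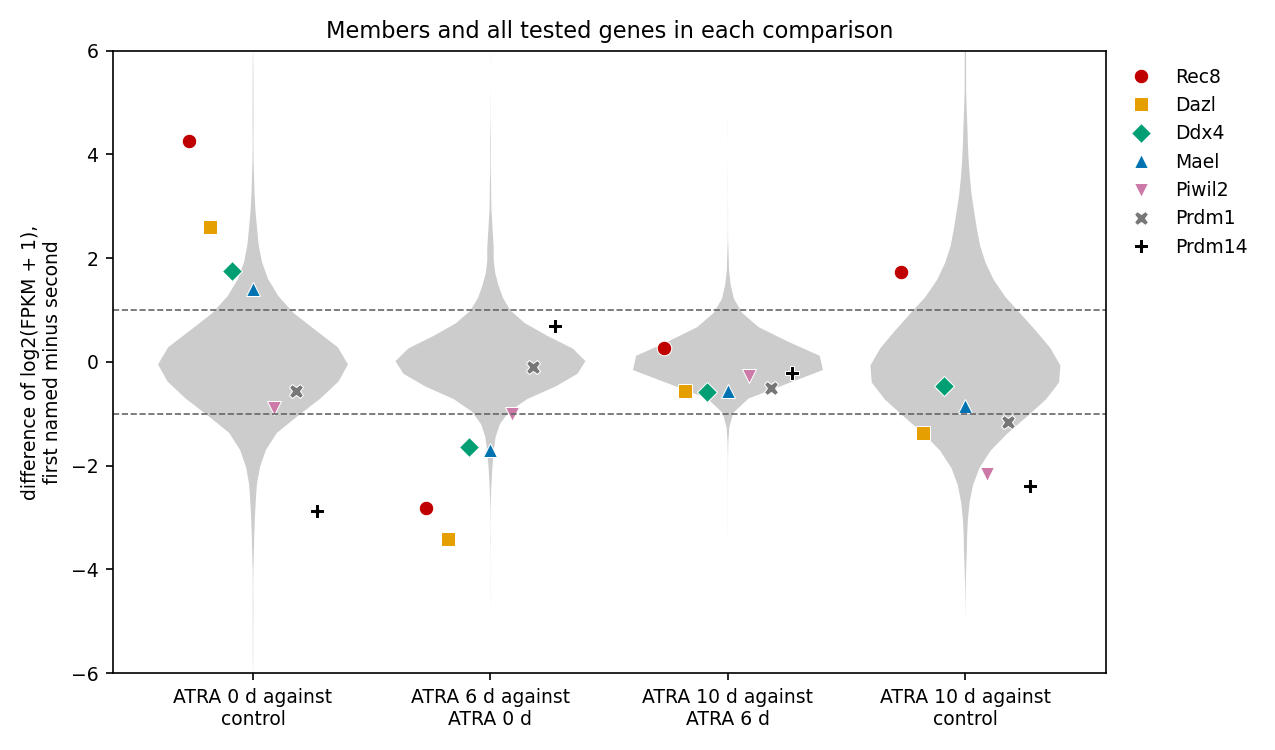
Difference of log2(FPKM + 1), first named minus second, for the 7 genes (coloured marks) over the distribution of all 5885 genes (grey) in each comparison; dashed lines mark 2-fold, and between 12 and 33 genes a comparison lie beyond the axis. At 0 days against the control Rec8 is at 4.27 and Prdm14 at -2.87, at 6 against 0 days Dazl is at -3.42, and at 10 against 6 days all 7 lie inside the lines.

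At 10 against 6 days none of the 7 genes was called, where 3.7% of all genes were higher and 0.85% lower. Rec8 was at 0.27, and the other 6 lay between -0.58 for Ddx4 and -0.21 for Prdm14, beside a median of 0.02 for all genes. With a pseudocount of 0.1, 2 of the 7 were lower in this step, as were 185 of all 5885 genes. At 10 days against the control 1 was higher, Rec8, and 4 were lower, where 17.1% of all genes were lower. The lower ones were Prdm14 (-2.38), Piwil2 (-2.15), Dazl (-1.37) and Prdm1 (-1.15), and Mael was at -0.86 and Ddx4 at -0.46.

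The 7 genes showed 5 different orders of the 4 libraries. The highest and lowest library of each of the 7 were 2-fold or more apart, as were those of 3047 of 5885 genes (51.8%). Of those 3047 genes 17.9% were highest at 0 days, as were 4 of the 7, and 39.4% were highest in the control, as were 3. Genes 2-fold or more above both the control and 6 days at 0 days numbered 147, or 2.5% of those tested, and included Rec8, Dazl, Ddx4 and Mael. Dazl and Mael shared their order with 4.1% of the 3047 genes, and Piwil2 and Prdm1 theirs, a decline at each library from the control to 10 days, with 15.6%.

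Other genes of the piRNA pathway and of meiosis gave smaller differences at 0 days than Rec8 and Dazl. Among 7 other tested genes of the piRNA pathway and germ granules, 2 were higher at 0 days than in the control and none was lower, with a median difference of 0.44. They were Mov10l1, a helicase needed to make piRNAs, at 11.9 FPKM at 0 days and 4.34 FPKM in the control, and Tex19.1, a germ cell gene that restrains retrotransposons and has a close copy in Tex19.2 with which it may share reads, at 53.6 FPKM at 0 days and 22.4 FPKM in the control. In the next step, 6 against 0 days, 4 of the 7 were lower and none higher, with a median of -1.10. Mov10l1 was at 2.07 FPKM at 6 days and 11.9 FPKM at 0 days. Rnf17, a Tudor protein of germ granules, was at 5.41 FPKM at 6 days and 12.7 FPKM at 0 days. Tdrd5, also a Tudor protein, was instead highest at 10 days, at 3.18 FPKM, against 0.240 FPKM in the control. Pnldc1, the exonuclease that trims piRNA ends, was at 5.89 FPKM at 10 days and 20.9 FPKM in the control.

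Of 16 other tested meiosis genes, 3 were higher and 3 lower at 0 days than in the control (4 and 2 under upper-quartile scaling). The median was -0.04, and its sign turned under both other scalings (0.03 and 0.17). The higher ones were Sycp3, a protein of the synaptonemal complex axis, at 19.9 FPKM at 0 days and 8.61 FPKM in the control, Meiob, a recombination factor, at 2.97 and 0.619 FPKM in the same libraries, and Prdm9, the methyltransferase that places recombination hotspots, at 2.54 and 0.679 FPKM. Meiob reached 1 FPKM only at 0 days, and Prdm9 only in the ATRA libraries. Their part in the counts was thus largely set by the filter. The lower ones were Ccnb1ip1, a crossover factor, Msh5, which stabilises crossover intermediates, and Trip13, an ATPase that mitotic cells also use. Between 6 and 0 days 4 of the 16 were lower, Meiob among them, and none higher, with a median of -0.41. Dmc1, the meiotic recombinase, was at 3.11 FPKM at 6 days and 16.3 FPKM at 0 days, and Tex14, a protein of germ cell bridges, at 1.32 FPKM at 6 days and 4.37 FPKM at 0 days. Hspa2, a testis-rich heat shock gene, was highest at 10 days, at 9.99 FPKM, against 1.62 FPKM in the control.

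**Figure D3:**
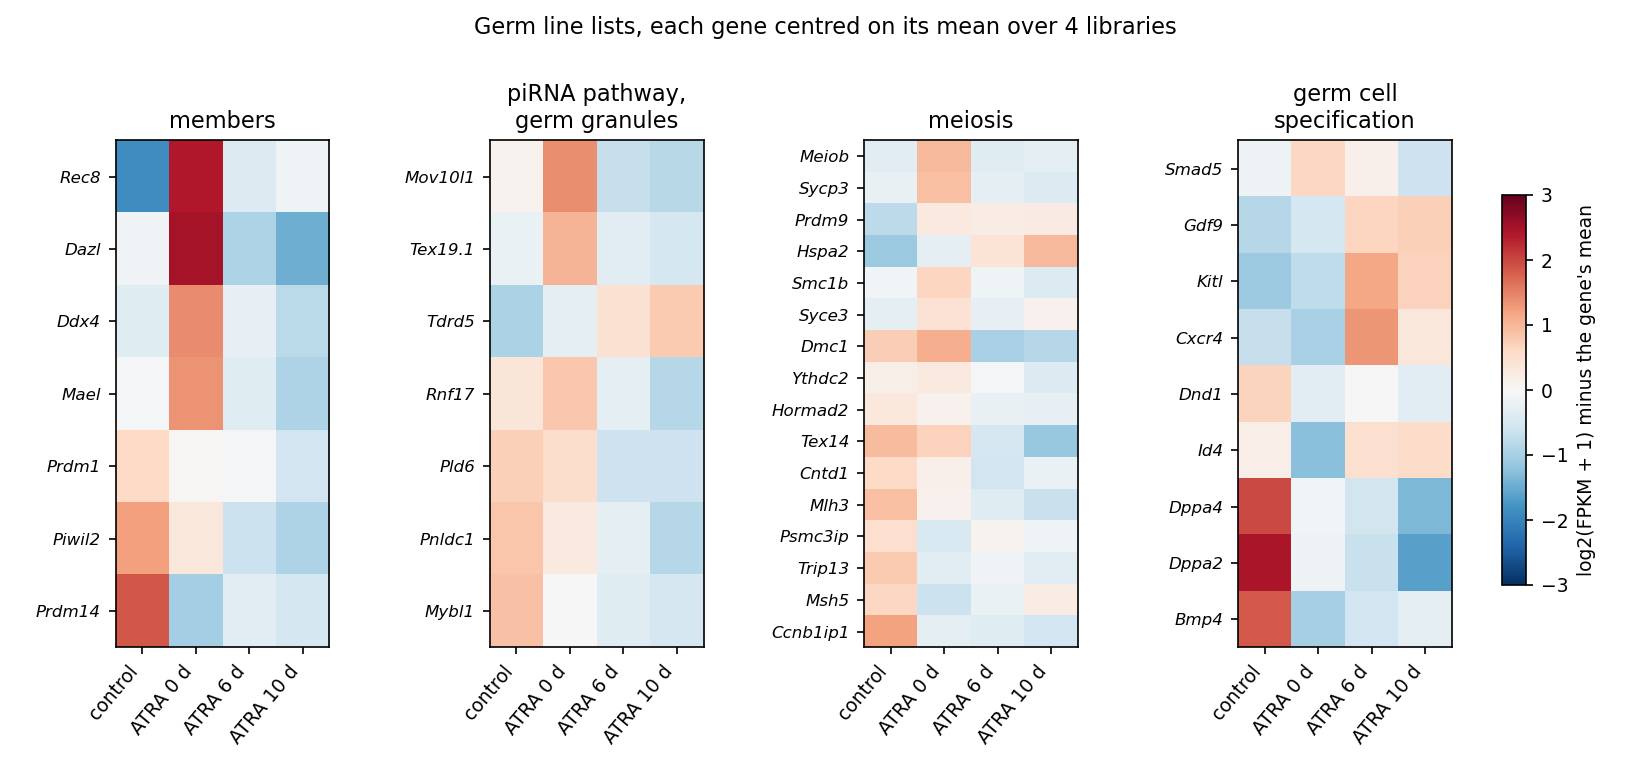
Log2(FPKM + 1) of each tested gene minus its mean over the 4 libraries (colour), for the 7 genes and 3 lists of other germ line genes, sorted by the difference at 0 days against the control. Rec8 and Dazl are darkest at 0 days. Ddx4, Mael and Mov10l1 are alike in shade there, with Dmc1, Tex19.1, Sycp3 and Meiob in paler shades. The 16 meiosis genes have their highest values in different libraries.

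Among 9 other tested genes of germ cell specification and early germ cells, 5 were lower and none higher at 0 days than in the control, with a median of -1.02 (4 lower under both other scalings). Bmp4, the growth factor that induces germ cells, was at 6.25 FPKM at 0 days and 51.3 FPKM in the control. Dppa2 and Dppa4, partner proteins of pluripotent cells, were at 8.18 and 27.8 FPKM at 0 days, against 54.8 and 119 FPKM in the control. Between 6 and 0 days 4 of the 9 were higher, led by Cxcr4, a receptor that guides migrating germ cells and many other cells. Cxcr4, Kitl and Gdf9, all among these 4, were below 1 FPKM in the control and at 0 days. They passed the filter only through the later libraries, so that count was largely set by the filter. Of 10 markers set down to check a germ cell label, 6 were in the table, and 4 of these are Dazl, Ddx4, Piwil2 and Mael. The others were Sycp3, given above, and Dnd1, an RNA-binding protein that germ cells need, at 48.7 FPKM at 0 days and 99.6 FPKM in the control. Their levels did not move together, and the presence of germ cells cannot be read from them.

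Rec8 was the only tested cohesin gene called higher at 0 days than in the control. Of 7 other tested cohesin subunits and regulators, 3 were lower and none higher at 0 days than in the control, with a median of -0.71 (2 lower under upper-quartile scaling). Rad21, the mitotic counterpart of Rec8, was at 120 FPKM at 0 days and 196 FPKM in the control, and at 65.1 FPKM at 10 days. Smc1b, the meiotic partner subunit, was at 2.35 FPKM at 0 days and 1.03 FPKM in the control. Esco2, which acetylates cohesin in S phase, was at 28.1 FPKM at 0 days and 103 FPKM in the control. FPKM of Rec8 was thus below that of Rad21 in each of the 4 libraries, also at its highest.

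The relatives of the other genes were few in the table. Boll, the sister gene of Dazl, was below 1 FPKM in all 4 libraries, the highest being 0.252 FPKM in the control. Of 4 tested genes of RNA-binding partners of Dazl none was called at 0 days against the control (median -0.53). Ago2, the only other Piwi or Argonaute gene found, was at 17.2 FPKM at 0 days and 21.6 FPKM in the control. Of 4 other tested PRDM genes 2 were higher and none lower at 0 days (median 0.52). The higher ones, Prdm6 and Prdm9, were below 1 FPKM in the control and passed the filter only through ATRA libraries. Prdm6, a repressor of smooth muscle genes, was highest at 10 days and lowest in the control, whereas Prdm1 and Prdm14 were highest in the control.

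Most genes of the retinoic acid response list were higher at 0 days and lower at 6 days, as Rec8, Dazl, Ddx4 and Mael were. Of 9 tested genes 6 were higher at 0 days than in the control (median 2.65), 6 were lower at 6 than at 0 days (median -1.85), and 8 had their highest level at 0 days. Hoxb1 and Cdx1 reached 1 FPKM only at 0 days, so their part in these counts was largely set by the filter. Rarb, Meis1 and Hoxb2 were also below 1 FPKM in the control and passed only through ATRA libraries. Rarb, a retinoic acid receptor gene that is itself a receptor target, was at 0.630 FPKM in the control, 16.9 FPKM at 0 days, 3.97 FPKM at 6 days and 2.92 FPKM at 10 days. Like Rec8 it was above the control in all 3 ATRA libraries. Rarg, another receptor gene, was instead below the control at 0 days, at 42.4 and 79.5 FPKM, under the 2-fold call. Stra8, which retinoic acid induces at the start of meiosis, was not analysed here. The part of retinoic acid in the levels of the 7 genes was not tested.

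Prdm14 was highest in the control, as the genes of the pluripotency list were. In the pluripotency list, 11 of 12 genes were lower and none was higher at 0 days against the control, with a median of -3.47. Their summed level was 2409 FPKM in the control, 199 FPKM at 0 days, 301 FPKM at 6 days and 275 FPKM at 10 days. The sum was thus lowest at 0 days, as Prdm14 was, but Pou5f1 was its largest part in every library. Gene by gene the low point was not shared. Dnmt3l, Lin28b, Dppa4, Nr5a2 and Jam2 were lowest at 10 days, narrowly so for Dnmt3l and Jam2, and the other genes of the list at 0 days. Esrrb, which helps to hold stem cells in the naive state, was at 3.75 FPKM at 0 days and 129 FPKM in the control. The part of the pluripotent state in the level of Prdm14 was not tested.

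Factors tied to the silencing of germ line genes in embryonic stem cells differed among themselves. Tet1 was counted with them, although oxidation of methylcytosine opposes methylation. Of 11 tested, 4 were lower and 2 higher at 0 days than in the control, with a median of -0.77. The 4 lower ones were Dnmt3l, a cofactor of DNA methyltransferases, at 15.0 FPKM at 0 days and 202 FPKM in the control, Uhrf1, which maintains methylation, at 42.1 and 177 FPKM, Tet1, a methylcytosine oxidase, at 3.76 and 29.5 FPKM, and L3mbtl2, a Polycomb-like repressor, at 19.6 and 58.6 FPKM. The higher ones were Yaf2, a subunit of Polycomb complexes, at 26.0 FPKM at 0 days and 4.30 FPKM in the control, and Dnmt3a, a DNA methyltransferase, at 20.4 and 5.97 FPKM. E2f6 and Max, whose motifs were searched above, were at 16.5 and 48.4 FPKM at 0 days, against 9.77 and 58.8 FPKM in the control. None of the 11 was called at 6 against 0 days. Dnmt3a was just short of the call in that step, at -0.95, with 20.4 FPKM at 0 days and 10.1 FPKM at 6 days. The part of the 11 factors in the levels of the 7 genes was not tested.

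Markers for the somatic cells of the gonad, the organ whose germ cells use Rec8, Dazl and Ddx4, gave mixed values. Of 5 tested genes 2 were higher and 1 was lower at 0 days than in the control. Fshr, the receptor for follicle stimulating hormone, was listed at 0 in all 4 libraries, and Amh, the Sertoli cell hormone, was at most 0.173 FPKM. Sox9, a Sertoli cell factor that many other tissues use, was at 0.0380 FPKM in the control, 5.32 FPKM at 0 days, 2.78 FPKM at 6 days and 1.87 FPKM at 10 days, and so was highest at 0 days, as Rec8, Dazl and Ddx4 were. Gata4, which endoderm also expresses, was at 6.53 FPKM in the control, 17.7 FPKM at 0 days, 92.1 FPKM at 6 days and 90.6 FPKM at 10 days. Summed over the 9 genes in the table, the level was 51.1 FPKM in the control, 59.6 FPKM at 0 days, 131 FPKM at 6 days and 144 FPKM at 10 days, and Gata4 made up most of it at 6 and 10 days. The part of gonadal cells in the levels of the 7 genes was not tested.

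The genes whose profile over the 4 libraries was closest to each of the 7 were found among 4242 named genes that reached 5 FPKM in any library, by the root mean square difference of centred log2(FPKM + 1). Closest to Rec8 was Mrc2, an endocytic collagen receptor (0.20), at 0.368 FPKM in the control, 31.5 FPKM at 0 days, 4.57 FPKM at 6 days and 4.58 FPKM at 10 days, followed by H2-Bl (0.33), one of many near-identical MHC class I genes that may share reads, and St6gal1 (0.37). No gene came as close to Dazl, for which Fsd1 (0.55), Raet1a (0.58) and Meox1 (0.58) were nearest. Sox7, an endothelial and endoderm factor, was closest to Ddx4 (0.05), at 19.6 FPKM at 0 days and 5.11 FPKM in the control. Zadh2 was also among the nearest to Ddx4 (0.18). Closest to Mael were Satb1 (0.14), Sox7 (0.15) and Mov10l1 (0.19). Atg14 and Sult4a1 (0.07 each) and Pald1 (0.10) were closest to Piwil2. Prdm1 had Ccdc85c (0.01), Ecd (0.02) and Dars (0.03), and Prdm14 had Nmnat2 (0.05), F2rl1 (0.08) and Fam129a (0.10). With 4 libraries such likeness is a description only, and small differences are frequent among genes that vary little, as Prdm1 does.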

How the data were processed

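RNA sequencing values came from 4 libraries, 1 for each group, and the FPKM values are those the authors deposited, per the file headers. Trimmomatic, TopHat and Cufflinks and build mm10 are named per the submitters' processing notes, without versions; the annotation, use of strand and any filter are not stated in the sources used here. Because FPKM is relative to the library total, a few abundant RNAs lower all other values. Of 10201 rows, the 177 symbols with more than 1 row were summed, leaving 9997 symbols. Of these, 9596 could be placed by name in GENCODE, mainly on chromosomes 1 and 10 to 18. Genes outside the 9997 symbols were not analysed here.

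Depth was estimated from 1396 genes with a single GENCODE M21 transcript of 800 nt or more, as the median of FPKM times kb between 0.02 and 0.05, taken as the worth of 1 fragment. Ratio intervals are exact conditional binomial intervals on the estimated fragments. Genes were tested at 1 FPKM or more in any library, with a pseudocount of 1. There are no p-values. The 7 genes and 14 further lists were chosen with earlier results of these data known. Genes named from a list were examples from the 4 with the largest range, by rule, and from those called; other names were picked with values in view. Some genes are in more than 1 list. The steps were tested on simulated data with counting noise. Promoter windows are from RefSeq. Alternatives were pseudocounts of 0.1 and 0.5, other filters, other scaling, a 4-fold threshold, the highest row of a symbol, and small RNAs left out. Computation used Python 3.11.15 with matplotlib 3.10.9, scipy 1.17.1, numpy 2.4.6 and pandas 2.3.3.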

Additional observations from a re-analysis of the deposited data

How the results depend on the processing

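No paired analysis was possible because each group has 1 library. None of the differences of the 7 genes changed sign under the alternatives run, and both other scalings and leaving out small RNAs kept every call of the 7. A pseudocount of 0.1 added Prdm14 as higher at 6 against 0 days (1 gene) and gave 2 lower at 0 days against the control (Piwil2 added), 2 lower at 10 against 6 days (Dazl and Prdm1), and 5 lower at 10 days against the control (Mael added). With a filter of 5 FPKM, which Prdm1 does not pass, 3 were lower in that comparison, as were 858 of all 4508 genes that passed. At 4-fold, 2 of the 7 were higher at 0 days against the control, 2 were lower at 6 against 0 days, and 0 were higher and 2 lower at 10 days against the control.

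Over all genes, 4-fold gave 192 higher and 153 lower at 0 days against the control, 133 and 47 at 6 against 0 days, 29 and 7 at 10 against 6 days, and 469 and 189 at 10 days against the control. Of the 5885 genes, a pseudocount of 0.1 gave 1111 higher and 929 lower at 0 days against the control. At 6 against 0 days it gave 723 higher and 473 lower, and at 10 against 6 days 363 and 185. At 10 days against the control it gave 1468 higher and 1219 lower. A pseudocount of 0.5 gave 98 lower at 10 against 6 days. Upper-quartile scaling moved the median gene by 0.23 at 0 days against the control, with 497 lower genes, and by -0.12 at 10 against 6 days, with 76 lower. The share of higher genes among those called was 65.5% and 67.5% under it, and 48.9% and 81.3% as deposited. With that shift included, Rec8 was at 4.49 and Prdm14 at -2.70 under this scaling at 0 days against the control, and relative to it at 4.26 and -2.93. The cause of these moves was not tested. The 4 levels below 1 FPKM, of Dazl, Prdm1 and Piwil2 at 10 days and Prdm14 at 0 days, rest on 31 to 90 fragments.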
